A study of Homo sapiens with 6 samples.

Results

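The genes described are 10 components of the TGF-beta and activin pathway: the ligand genes TGFB1, TGFB2, TGFB3 and INHBA, the receptor genes TGFBR1 and TGFBR2, and the signal transducers SMAD2, SMAD3, SMAD4 and SMAD7. They were taken by symbol from the annotation of the array, which gave them 33 of the 54675 probe sets. All 10 were among the 12958 genes tested, of 19775 genes with a probe set of their own. Expression was measured on 6 Affymetrix U133 Plus 2.0 arrays, 1 for each combination of 2 established human osteosarcoma cell lines and 3 treatments. KHOS descends from the HOS line by transformation with Kirsten murine sarcoma virus. U-2OS derives from a different osteosarcoma. In each line the arrays held cells labelled control, cells transfected for 48 hours with the vector pEP-miR-Null, which is labelled miR-null here, and cells transfected with pEP-miR-1, a vector for the muscle microRNA miR-1. Per the labels, each array carried RNA pooled from 3 flasks. There was thus 1 pooled array per line and treatment, values within a line have no replicate, and each line stands for itself. No vector is named for the control arrays, and the labels do not say whether those cells received transfection reagent.

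TGF-beta ligands are secreted in a latent form, stored in the matrix and released to bind TGFBR2, a receptor kinase that then activates TGFBR1. TGFBR1 phosphorylates SMAD2 and SMAD3, which join SMAD4 and act on genes in the nucleus. INHBA encodes the subunit of activin A, which uses its own receptors and the same SMADs, while SMAD7 blocks the receptors and is itself induced by the pathway. Bone matrix is a large store of TGF-beta, and the pathway governs growth, matrix production and differentiation of bone-forming cells.

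Several sequences are shown to identify what was compared: the microRNA that separates the 2 vectors, and the bases before a listed start of INHBA, TGFB2 and SMAD7. By their representing probe sets, these are members whose vector arrays lay on opposite sides of control in the 2 lines. SMAD4, which had the same pattern, is not shown. No result below was derived from them, and sites for the microRNA in the members' transcripts were not analysed here. All are RefSeq sequences of GRCh38.p14, written 5′ to 3′ on the strand of the gene. Mature miR-1-3p has the same sequence from its loci on chromosome 18 (chr18:21829015-21829036, minus strand) and chromosome 20 (chr20:62554351-62554372, plus strand). Capitals mark its seed, bases 2 to 8.
hsa-miR-1-3p: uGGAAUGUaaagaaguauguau
The next sequences are the 250 bases before the listed start of INHBA (chr7:41703091-41703340, minus strand), TGFB2 (chr1:218345086-218345335, plus strand) and SMAD7 (chr18:48950966-48951215, minus strand). For SMAD7, which has 3 listed starts, the outermost was used. The INHBA window lies inside the annotated span of the gene (chr7:41685114-41705406), so it is not upstream of the outer end of that span. Capitals mark the SMAD box CAGAC on either strand.
INHBA: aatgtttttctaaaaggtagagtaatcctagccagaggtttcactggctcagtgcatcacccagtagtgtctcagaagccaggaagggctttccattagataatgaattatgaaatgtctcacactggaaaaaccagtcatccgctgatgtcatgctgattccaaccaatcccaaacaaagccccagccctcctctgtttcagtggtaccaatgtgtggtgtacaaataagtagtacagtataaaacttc
TGFB2: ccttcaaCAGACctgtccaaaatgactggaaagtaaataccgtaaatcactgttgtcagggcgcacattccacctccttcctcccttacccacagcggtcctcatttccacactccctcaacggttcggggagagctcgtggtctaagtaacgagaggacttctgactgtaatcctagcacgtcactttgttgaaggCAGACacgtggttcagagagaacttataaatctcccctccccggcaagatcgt
SMAD7: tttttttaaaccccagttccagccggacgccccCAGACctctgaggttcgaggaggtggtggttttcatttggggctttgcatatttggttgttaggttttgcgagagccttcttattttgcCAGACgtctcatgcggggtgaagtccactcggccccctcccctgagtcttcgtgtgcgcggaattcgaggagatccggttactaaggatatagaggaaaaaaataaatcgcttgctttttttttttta
The SMAD box was present in 38% of 35116 listed promoter windows of this length, and in 10 of 26 windows of the 10 genes. The printed TGFB2 and SMAD7 windows each held it at 2 places, and the INHBA window did not hold it. The AP-1 motif TGANTCA (6.57% of all windows) was found in 1 of the 26, before 1 of the 5 listed starts of SMAD3. The cyclic AMP response element TGACGTCA (1.65%), the amino acid response motif TGATGNAA (3.14%) and the SMAD palindrome GTCTAGAC (0.182%) were in 0 of the 26. Both strands were searched, the motifs were counted separately, and a match is a run of letters, not a measured site.

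Values are log2 RMA values, the normalized intensity of a probe set on a log2 scale, so a difference of 1 is a doubling. They compare arrays for 1 probe set and not 1 gene with another. Array medians lay between 4.98 and 5.15, and arrays within a line had a correlation of 0.978 to 0.996 over all probe sets. The spread of values differed with line and vector. The interquartile range was 3.24, 3.32 and 3.36 on the control, miR-null and miR-1 arrays of KHOS, and 3.07, 2.84 and 2.75 on those of U-2OS. Hybridization spike-ins averaged 9.76, 10.13 and 9.93 in KHOS and were at 10.81, 11.33 and 11.65 in U-2OS. In U-2OS the change from control to the mean of both vector arrays had a median of -0.20 over the 7890 tested genes with a mean level at or above the 75th percentile of probe sets and 0.09 over the 5068 below it; in KHOS these medians were 0.00 and -0.03. Of the 10 members 7 belong to the upper set, and the part of these shifts in their values was not tested. Of the 8 mesenchymal and bone markers 6 reached the level filter (the median probe set, 5.11) by their mean over the arrays. NT5E did so through KHOS, at 11.57 to 11.99, with 3.63 to 3.89 in U-2OS. RUNX2 was at 8.98 to 9.85 in KHOS and at 6.74, 4.72 and 4.23 on the control, miR-null and miR-1 arrays of U-2OS. Vimentin was at 13.15 to 14.30, while the COL1A2 and ALPL probe sets stayed below the filter. Of 5 blood and 6 endothelial markers with a probe set 2 of each reached the filter, HBB and CD3E among the former and PECAM1 and TEK among the latter. Of 6 epithelial markers 4 did: the keratins KRT8 and KRT18, the adhesion molecule EPCAM (8.43 to 8.70 in KHOS and 5.49 to 5.96 in U-2OS) and CLDN4, a claudin at 5.04 to 6.36. The control probe set for large-subunit ribosomal RNA was at 11.49, 12.41 and 12.70 on the control, miR-null and miR-1 arrays of KHOS and at 12.06, 13.02 and 13.13 on the U-2OS ones. The actin 3′ minus 5′ difference, a sign of RNA integrity, was 2.68, 2.89 and 2.90 in KHOS but 2.40, 2.64 and 2.49 in U-2OS. Both were thus higher with the vectors in each line, and their part in any vector change was not tested.

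TGFB1, the founding ligand of the family, was at 7.46, 7.56 and 7.13 on the control, miR-null and miR-1 arrays of KHOS and at 6.15, 6.33 and 6.26 on those of U-2OS. All KHOS arrays lay above all U-2OS arrays, and no vector array was further than 0.33 from the control of its line. TGFB2, a ligand with weak affinity for TGFBR2 alone, ran the other way, with 5.89, 6.18 and 6.82 in KHOS but 8.30, 7.46 and 7.39 in U-2OS. The U-2OS control array was highest and the KHOS control array lowest, and with the vectors the lines came closer without overlapping. TGFB3, the ligand known from palate and scar-free repair, was at 5.02, 5.04 and 5.19 in KHOS and at 5.26, 4.92 and 5.45 in U-2OS. These values lie at the level filter, and the lines overlapped.

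INHBA, the activin A subunit, was at 7.33 on the KHOS control array and at 8.98 and 9.26 on the KHOS miR-null and miR-1 arrays. In U-2OS it was at 9.48 in control and at 8.99 and 8.80 with the vectors. The KHOS control array thus stood apart from the other 5, which lay within 8.80 to 9.48.

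TGFBR2, the ligand-binding receptor, was at 11.36, 11.21 and 11.00 in KHOS and at 10.40, 10.01 and 9.87 in U-2OS. TGFBR1, the kinase that phosphorylates the SMADs, was at 9.98, 9.69 and 9.88 in KHOS and at 9.09, 8.82 and 8.44 in U-2OS. For both receptors the control array was highest in each line and the lines did not overlap.

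SMAD2, a receptor-activated SMAD, was at 10.28, 10.19 and 10.26 in KHOS and at 9.25, 8.80 and 8.69 in U-2OS. SMAD3, the other one, was at 8.66, 8.58 and 8.59 in KHOS and at 8.67, 7.80 and 7.40 in U-2OS, so that the lines were level in control and apart with a vector. SMAD4, the common partner, was at 8.90, 9.05 and 9.22 in KHOS and at 7.84, 7.21 and 6.44 in U-2OS. SMAD7, the inhibitory SMAD, was at 8.02, 8.18 and 8.69 in KHOS and at 7.33, 7.06 and 7.04 in U-2OS. The miR-1 arrays held the highest SMAD4 and SMAD7 values of KHOS and the lowest of U-2OS.

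**Figure D1:**
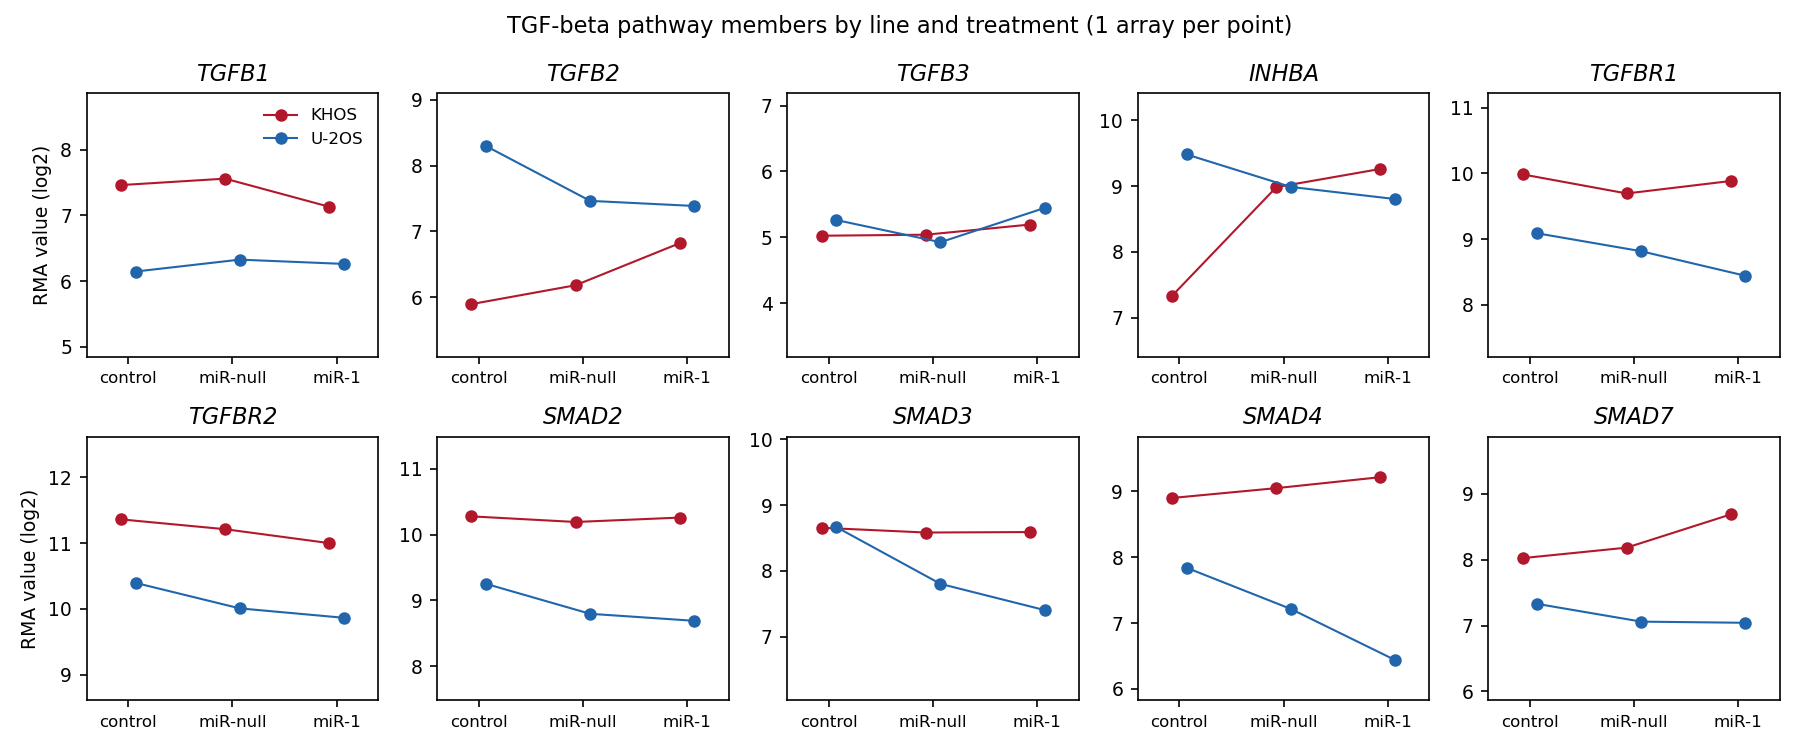
RMA values (log2) of the probe set that represents each member, by treatment, with 1 array per point, KHOS in red and U-2OS in blue; each panel spans 4 log2 units around its own midpoint, and lines join arrays only to guide the eye. INHBA is low on the KHOS control array alone, at 7.33, and SMAD3 and SMAD4 reach their lowest values, 7.40 and 6.44, on the U-2OS miR-1 array.

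The lines were compared over their 3 arrays each. KHOS had the higher level of the receptors, of SMAD2, SMAD4 and SMAD7 and of TGFB1, and U-2OS the higher level of TGFB2, so 7 of 10 genes passed a Benjamini-Hochberg adjusted p of 0.05 in limma. Of all genes tested, 30.3% were called higher and 24.5% lower in KHOS, against 6 and 1 of the 10. Among the calls 55.3% were higher in KHOS, and 64.5% at the 75th percentile filter, which 7 of the 10 reached. The lines differ over most of the transcriptome, and the median difference of all genes was -0.002. SMAD4 differed most, by 1.89 ± 0.31 (log2, SE, limma adjusted p = 0.0031), from a mean of 9.06 ± 0.16 (SD, n = 3 arrays, 1 per treatment) in KHOS and 7.16 ± 0.70 in U-2OS. These SDs hold the differences between treatments and are not a spread of replicates. SMAD2 was higher by 1.33 ± 0.16 (limma adjusted p = 9.54e-04), SMAD7 by 1.16 ± 0.20 and TGFB1 by 1.14 ± 0.16. TGFBR2 was higher by 1.10 ± 0.14 and TGFBR1 by 1.07 ± 0.17. TGFB2 was lower in KHOS by a log2 difference of -1.42 ± 0.33 (limma adjusted p = 0.0119). SMAD3 (0.65 ± 0.24, limma adjusted p = 0.0567), INHBA (-0.56 ± 0.47, 0.334) and TGFB3 (-0.13 ± 0.15, 0.498) did not pass. Without either control array, which leaves the line difference to the vector arrays, SMAD3 passed at 0.98 (limma adjusted p = 1.83e-04) and TGFB2 went to -0.92, with 67.6% of all genes called. SMAD3 had 0.39 (limma adjusted p = 0.248) without either miR-1 array. The same 7 were those whose arrays did not overlap between lines, a pattern seen in 32.7% of all genes with KHOS above and 32.2% with KHOS below. For a single gene the exact two-sided permutation test of 3 arrays against 3 cannot go below p = 0.1, which all 7 reached. After a further quantile normalization the median difference of all genes was -0.17, 42.3% of the calls were higher in KHOS in place of 55.3%, and all 7 members still passed with the same sign.

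The separate probe sets of a gene read different parts of its transcripts, and not all of them showed the line difference. Of the 33 probe sets 23 reached the level filter. Fitted as features of their own beside all probe sets with 1 symbol, 11 were called higher in KHOS and 3 lower, against 31.8% and 21% of 23010. Those counts include 2 probe sets, 209909_s_at of TGFB2 and 236561_at of TGFBR1, that reached the filter through 1 line only and so had to differ; they are not support for a line difference. For SMAD2, 203075_at, 226563_at, 203077_s_at and 235598_at were higher in KHOS by 1.33, 1.23, 0.67 and 0.56, whereas 203076_s_at had -0.23 ± 0.15 and did not pass. All KHOS arrays of 203076_s_at (9.38 to 9.44) nevertheless lay below all its U-2OS arrays (9.49 to 9.72), the opposite direction. SMAD4 was higher in KHOS by 202527_s_at (1.89) and 235725_at (1.0). TGFBR1 passed by 224793_s_at (1.07), but 206943_at had 0.01 ± 0.15, and 236561_at was at 5.56 to 5.74 in KHOS and below the filter, at 4.73 to 5.07, in U-2OS. TGFBR2 passed by 208944_at (1.10), and 207334_s_at had 0.22 ± 0.15. For TGFB2, 209909_s_at stood at 3.90, 4.08 and 4.70 in KHOS and at 7.50, 5.83 and 5.27 in U-2OS, with KHOS below the filter throughout, while 220406_at had -0.24 ± 0.18. INHBA passed by 210511_s_at, with 5.70, 7.41 and 7.69 in KHOS but 8.77, 8.98 and 9.04 in U-2OS (-1.99 ± 0.33, limma adjusted p = 0.0029). The INHBA probe sets therefore disagree on the line difference once a vector is present, and both have the KHOS control array as the lowest of the 6. SMAD3 passed by 0 of its 3 probe sets.

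**Figure D2:**
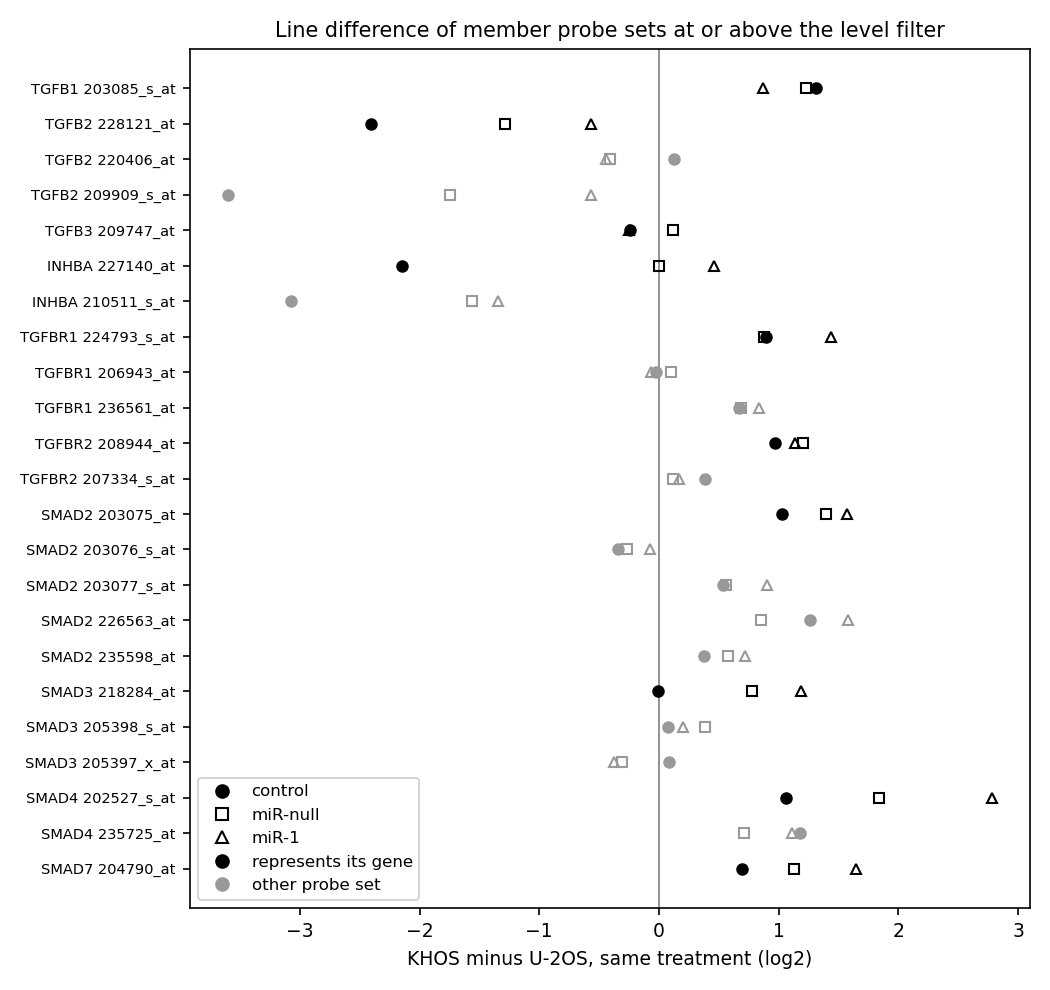
KHOS minus U-2OS at the same treatment (log2) for the 23 member probe sets at or above the level filter, with a filled circle for control, an open square for miR-null and an open triangle for miR-1; black marks the probe set that represents its gene and grey the others. TGFB2 228121_at and 209909_s_at and both INHBA probe sets have their most negative difference in control, and SMAD3 218284_at runs from 0 in control to above 1 with miR-1.

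The contrast of miR-1 with miR-null asks which transcripts differ with the microRNA in the vector. No member passed, and 0% of all genes did in either direction. The error of this fit also holds unlike changes of the lines from control, which can hide a difference between the vectors. For INHBA it was 0.57, where miR-1 differed from miR-null by 0.28 in KHOS and by -0.18 in U-2OS. The lack of calls is therefore not evidence that miR-1 had no effect. At an unadjusted limma p under 0.05 the counts were 0 of 10 members, 32 genes higher (0.247%) and 46 lower (0.355%), and 0 members moved by 1.2-fold in the same direction in both lines (0.903% of genes higher and 2.2% lower). Fitted changes ran from -0.30 ± 0.38 (SE) for SMAD4 to 0.34 ± 0.18 for TGFB3, with a median of -0.06 against -0.04 for all genes. Within KHOS the miR-1 array was above the miR-null array by 0.64 for TGFB2 and 0.51 for SMAD7 and below it by 0.43 for TGFB1. In U-2OS the miR-1 array was below the miR-null array by 0.78 for SMAD4 and 0.40 for SMAD3 and above it by 0.52 for TGFB3. Each of these is a difference between 2 arrays, and the 2 lines had opposite signs for TGFB2, INHBA, TGFBR1, SMAD2, SMAD3 (0.01 in KHOS), SMAD4 and SMAD7.

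The miR-null arrays against control, and both kinds of vector array together against control, show what went with transfection of a vector. They share the control arrays, so they are not independent of each other. Neither called a member, with 0% of genes called by limma for miR-null alone and 0.355% higher and 0.123% lower for both vectors. At an unadjusted limma p under 0.05, 0 members passed for miR-null, against 3.87% of genes higher and 5.87% lower. With both vectors SMAD3 had -0.57 ± 0.24 (SE, limma unadjusted p = 0.0465, adjusted 0.241) and TGFBR2 -0.36 ± 0.14 (limma unadjusted p = 0.035, adjusted 0.214). These were the 2 members with an unadjusted p under 0.05, against 13.3% of genes lower and 6.66% higher. INHBA had 0.60 ± 0.46, SMAD4 -0.39 ± 0.31, TGFBR1 -0.33 ± 0.16 and SMAD2 -0.28 ± 0.15, and the other 4 lay between -0.13 and 0.07. Other probe sets of 2 of these genes differed more: 226563_at of SMAD2 had -0.70 ± 0.18 (limma unadjusted p = 0.00572, adjusted 0.0994), lower with the vectors by 0.73 in KHOS and 0.68 in U-2OS, and 210511_s_at of INHBA had 1.04 ± 0.33 (limma unadjusted p = 0.014, adjusted 0.143). For miR-null alone the range was -0.47 ± 0.29 for SMAD3 to 0.58 ± 0.57 for INHBA. TGFBR1 was the member that was lower by 1.2-fold in both lines with miR-null (-0.29 in KHOS and -0.27 in U-2OS), as were 8.11% of genes, and 0 members were higher (5.73%). These fits treat unlike responses of the lines as spread. Without the KHOS control array SMAD3 (-1.06) and SMAD4 (-1.01) passed for both vectors, where the change is that of U-2OS. The U-2OS miR-null array itself differed from its control by -0.86 for SMAD3 and -0.83 for TGFB2. For miR-null SMAD3 (-0.96) and TGFB2 (-1.01) passed, but a miR-null fit without a control array still draws on both vector arrays of that line. Those fits, which set the vector arrays against 1 control array, called 14.9% and 10.4% of all genes (11.7% and 8.01% lower). Without the U-2OS control array INHBA passed in both (1.79 and 1.76), where 4.01% and 4% of genes were called (3.44% and 3.53% higher).

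The response to a vector was then compared between lines, as the KHOS minus U-2OS difference in the change from control to the 2 vector arrays. INHBA passed, with a difference of 2.37 ± 0.27 (log2, SE, limma adjusted p = 0.0087), and was the 1 member that did, where 2% of genes were called in this direction and 0.286% in the other. In KHOS it was 3.45-fold higher with the vectors (a log2 change of 1.79) and in U-2OS 1.50-fold lower (-0.59). Its error comes from how far the vector arrays of a line lie from each other, with a single control array in each line. INHBA no longer passed without the KHOS miR-null array (2.51, limma adjusted p = 0.0805), without the KHOS miR-1 array (2.23, 0.0671) and after a further quantile normalization (2.06, 0.0635), which moved the median of all genes from 0.14 to -0.05. A second probe set, 210511_s_at, passed in the fit of all probe sets with a difference of 1.62 ± 0.27 (limma adjusted p = 0.0379), from 1.85 in KHOS and 0.24 in U-2OS, so the higher values with the vectors in KHOS were read by both and the lower values in U-2OS by 227140_at alone. The third, 204926_at, was below the level filter, with 3.87 to 4.32 in KHOS and 4.49 to 5.19 in U-2OS.

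TGFB2 had the next largest difference, 1.48 ± 0.35 (limma adjusted p = 0.0687), from 0.61 in KHOS and -0.87 in U-2OS, and did not pass. Its probe set 209909_s_at had 2.44 in the fit of all probe sets, but its KHOS arrays all lay below the level filter, so this value is given as a description. With the 2 INHBA probe sets it made 3 of the 23 called higher and 0 lower, against 1.31% and 0.0956% of all probe sets. In U-2OS this probe set went from 7.50 to 5.83 and 5.27, while 220406_at went the other way, from 5.15 to 5.44 and 5.59. SMAD4 had 1.25 ± 0.41 (limma adjusted p = 0.132), with 0.23 for KHOS and -1.01 for U-2OS. Its other probe set above the filter, 235725_at, had -0.27 ± 0.28. SMAD3 had 0.99 ± 0.28 (limma adjusted p = 0.0984), from -0.07 and -1.06, with 0.22 ± 0.24 and -0.43 ± 0.24 for 205398_s_at and 205397_x_at. SMAD7 had 0.69 ± 0.31 (limma adjusted p = 0.237), from 0.41 and -0.28. SMAD2, TGFBR1 and TGFBR2 had 0.46, 0.26 and 0.20, TGFB3 0.17 and TGFB1 -0.26. The median of the 10 was 0.57 against 0.14 for all genes. Marker lists moved in the same contrast, with medians of 0.51 for 6 mesenchymal and bone markers (all positive, RUNX2 called at 3.13) and 0.67 for 4 epithelial markers (all positive, 0 called). Of the 2 endothelial markers PECAM1 was called at -1.21. Their part in the members' values was not tested. Without the U-2OS miR-null array TGFB2, SMAD3 and SMAD4 passed as well, and so did 9.7% of all genes in this direction, in place of 2%.

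In U-2OS 8 of the 10 were lower than control on both vector arrays (51.2% of all genes) and 1, TGFB1, was higher (32%), and in KHOS 4 were lower (40.5%) and 5 higher (38.6%). By their representing probe sets INHBA, TGFB2, SMAD4 and SMAD7 were above control on both vector arrays of KHOS and below it on both of U-2OS, as were 16.8% of genes, and 0 members had the reverse (10.2%). By quantile-normalized values the U-2OS changes were smaller: -0.82 for SMAD3, -0.86 for SMAD4, -0.62 for TGFB2, -0.36 for INHBA and -0.06 for SMAD7. TGFBR1, TGFBR2 and SMAD2 then had -0.21, -0.26 and -0.26 there, where the deposited values gave -0.46, -0.46 and -0.51. The INHBA change in KHOS was 1.70.

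**Figure D3:**
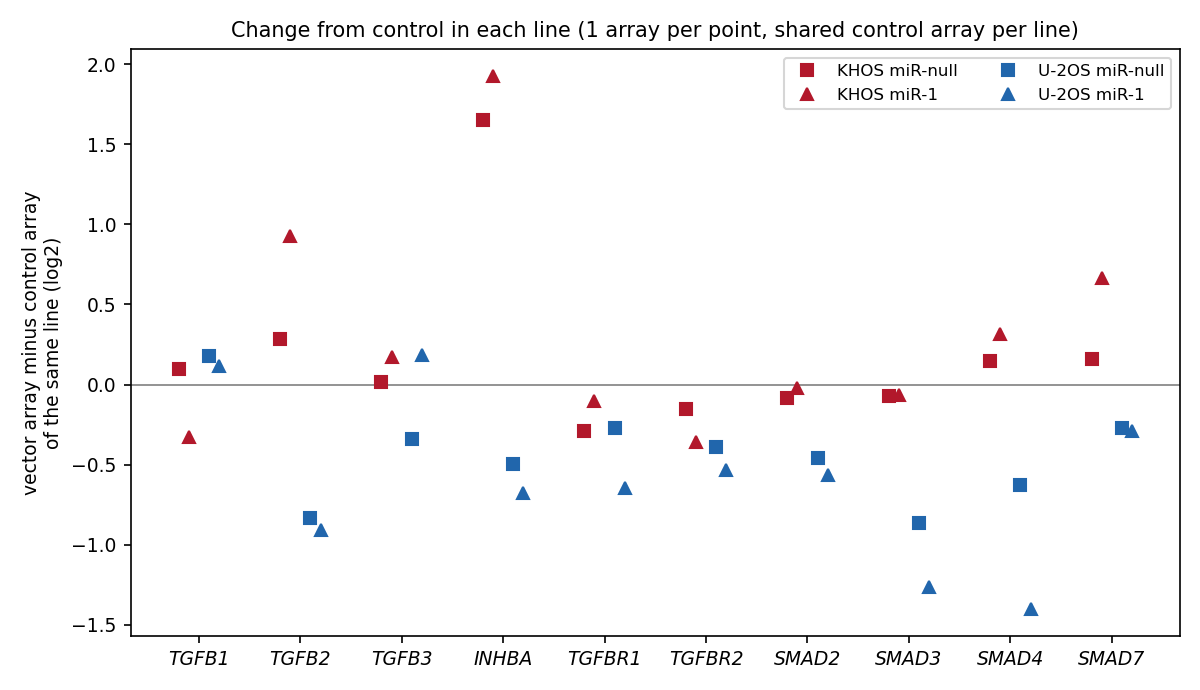
Difference of each vector array from the control array of its line (log2), with squares for miR-null and triangles for miR-1, KHOS in red and U-2OS in blue; both vector arrays of a line share 1 control array. INHBA in KHOS stands at 1.65 and 1.93, and SMAD3 and SMAD4 in U-2OS lie at -0.86 and -1.26 and at -0.63 and -1.40.

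Other genes of the pathway were taken from lists of general knowledge. The counts of called genes in these lists read against the shares of all genes given above, 30.3% higher and 24.5% lower in KHOS, and call nothing particular to a list. For the line difference of the vector change these shares are 2% and 0.286%. Of 9 tested genes of ligand latency and activation, 3 were higher and 3 lower in KHOS, and THBS1, a thrombospondin that activates latent TGF-beta, passed in the line difference of the vector change (1.71 ± 0.35, limma adjusted p = 0.0491). THBS1 was at 12.02, 11.14 and 11.71 in KHOS and at 11.81, 9.64 and 9.38 in U-2OS, and was also among the 3 genes higher in KHOS (1.35). FBN1, a fibrillin that anchors latent TGF-beta, and ITGAV, an integrin subunit that releases it, were higher in KHOS by 2.36 and 1.04. FBN2, LTBP2, a latent TGF-beta binding protein, and FURIN, the protease that cleaves the precursors, were lower in KHOS, with -3.26, -0.82 and -1.07. The KHOS arrays of FBN2, and those of INHBE and SMAD9 below, all lay under the level filter. These genes reached it through U-2OS, so their line differences are given as a description and not as support. The counts of genes lower in KHOS include FBN2 and INHBE. The list's median change with both vectors was -0.43 against -0.03 for all genes, with 8 of 9 negative and 0 called.

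Among 6 tested ligands related to activin, 2 were higher and 3 lower in KHOS. INHBB, the subunit of activin B, was at 9.56, 8.69 and 8.73 in KHOS and at 5.13, 5.63 and 6.88 in U-2OS, a line difference of 3.11 ± 0.44 (limma adjusted p = 0.0017). INHBB was thus lower with the vectors in KHOS and higher in U-2OS, the reverse of INHBA by 227140_at. The other INHBA probe sets, 210511_s_at and 204926_at, were also higher with the vectors in U-2OS, as INHBB was. The line difference of INHBB in the vector change, -1.98 ± 0.58, did not pass (limma adjusted p = 0.105). INHBC was higher (0.63) and INHBE (-1.44), GDF11 (-0.45) and the stress-induced ligand GDF15 (-2.01) lower in KHOS. FST, the follistatin that traps activin, was at 7.82, 9.54 and 9.28 in KHOS and at 8.11, 8.14 and 8.41 in U-2OS, and passed in the line difference of the vector change (1.43 ± 0.28, limma adjusted p = 0.0433). As with INHBA, its KHOS control array was the lowest of the 6. The other antagonists, FSTL1 and FSTL3, differed between lines by 0.52 and -0.73.

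Of 3 tested co-receptors, BAMBI, a decoy receptor that dampens TGF-beta signalling, rose with both vectors by 1.58 ± 0.17 (limma adjusted p = 0.017). The ribosomal RNA signal given above was also higher with the vectors, and its part in this was not tested. BAMBI was at 4.80, 6.25 and 6.72 in KHOS and at 7.27, 8.75 and 8.75 in U-2OS, so that the vector arrays were above control in both lines and the level was lower in KHOS (-2.34). BAMBI did not pass without the KHOS miR-null (1.67, limma adjusted p = 0.0754), KHOS miR-1 (1.46, 0.0671) or U-2OS miR-null array (1.59, 0.119). Of 6 activin and BMP receptors, BMPR2, a BMP type II receptor, was higher in KHOS by 2.16 ± 0.37, and it passed in the line difference of the vector change (1.82 ± 0.29, limma adjusted p = 0.0237), from 7.85 to 6.14 and 5.71 in U-2OS. The BMP SMADs SMAD1 and SMAD9 differed between lines by 0.68 and -2.25, and SMAD6, an inhibitory SMAD, by 0.88.

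Of 13 tested SMAD repressors and ubiquitin regulators, 3 were higher and 2 lower in KHOS, among them the SMAD repressor SKI at 1.62 and TGIF1, a homeodomain repressor, at 0.89. SMURF1, a ubiquitin ligase that SMAD7 brings to the receptors, had 0.62, the SMAD phosphatase PPM1A -0.80 and TRIM33, a SMAD4-binding ubiquitin ligase, -0.63. With both vectors TGIF1 had the largest change of this list, 0.96 ± 0.15, which did not pass (limma adjusted p = 0.0515). PMEPA1, a feedback inhibitor induced by TGF-beta, was at 10.26, 10.40 and 10.69 in KHOS and at 11.95, 10.61 and 10.42 in U-2OS and passed in the line difference of the vector change (1.72 ± 0.27, limma adjusted p = 0.0231).

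The list of SMAD3 target genes, which holds TGFB1, SMAD7, PMEPA1 and LTBP2 as well, had 25 tested genes. In the line comparison 7 were higher and 10 lower in KHOS (30.3% and 24.5% of all genes), with NOX4, an oxidase, at 2.83, ID2 at 1.64 and JUNB at 1.33 on one side. On the other were TAGLN, a smooth muscle actin-binding protein (-2.73), MYC (-2.20), LMCD1 (-1.74), BHLHE40 (-1.42), ID1 (-1.29), SPHK1 (-1.23), SNAI1 (-1.03), CDKN1A (-0.73) and COL1A1 (-0.67), while SNAI2 was higher (0.85). NOX4 reached the level filter through KHOS, at 8.11, 7.22 and 7.69, with 5.43, 4.53 and 4.59 in U-2OS. Its call is therefore given as a description and not as support for a line difference. With both vectors 0 of the 25 were called, 11 were positive and 14 negative, and the median was -0.21 against -0.03 for all genes. The list was not split by whether SMAD3 raises or lowers a gene, so these signs and medians do not measure pathway activity. The extremes were MYC, at 1.54 ± 0.33, and COL1A1, a collagen chain, at -1.18 ± 0.21. In the line difference of the vector change 4 passed, all with the larger value in KHOS: FN1, fibronectin (2.28 ± 0.28), COL4A1, a basement membrane collagen (2.07 ± 0.24), PMEPA1 and MYC (1.54 ± 0.31). Of all genes 2% were called in this direction and 0.286% in the other. The shared sign is not particular to the list, as 87.5% of the 296 calls over all genes had it. COL4A1 was at 9.27, 9.26 and 9.11 in KHOS and at 10.99, 8.87 and 8.79 in U-2OS. FN1 was at 9.73, 10.70 and 10.31 in KHOS and at 10.36, 8.81 and 8.91 in U-2OS. For PMEPA1 and COL4A1 most of the difference lies in U-2OS, where the vector arrays were lower, whereas MYC was above control on the vector arrays of both lines, by 2.07 and 2.55 in KHOS and by 0.73 and 0.80 in U-2OS. Without either KHOS vector array, or after quantile normalization, none of THBS1, FST, BMPR2, FN1, COL4A1, PMEPA1 and MYC passed (limma adjusted p from 0.06 to 0.204), with 7 genes or fewer called in the whole table without such an array in place of 296. Without the U-2OS miR-1 array THBS1 alone of these did not pass (1.57, limma adjusted p = 0.0524).

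**Figure D4:**
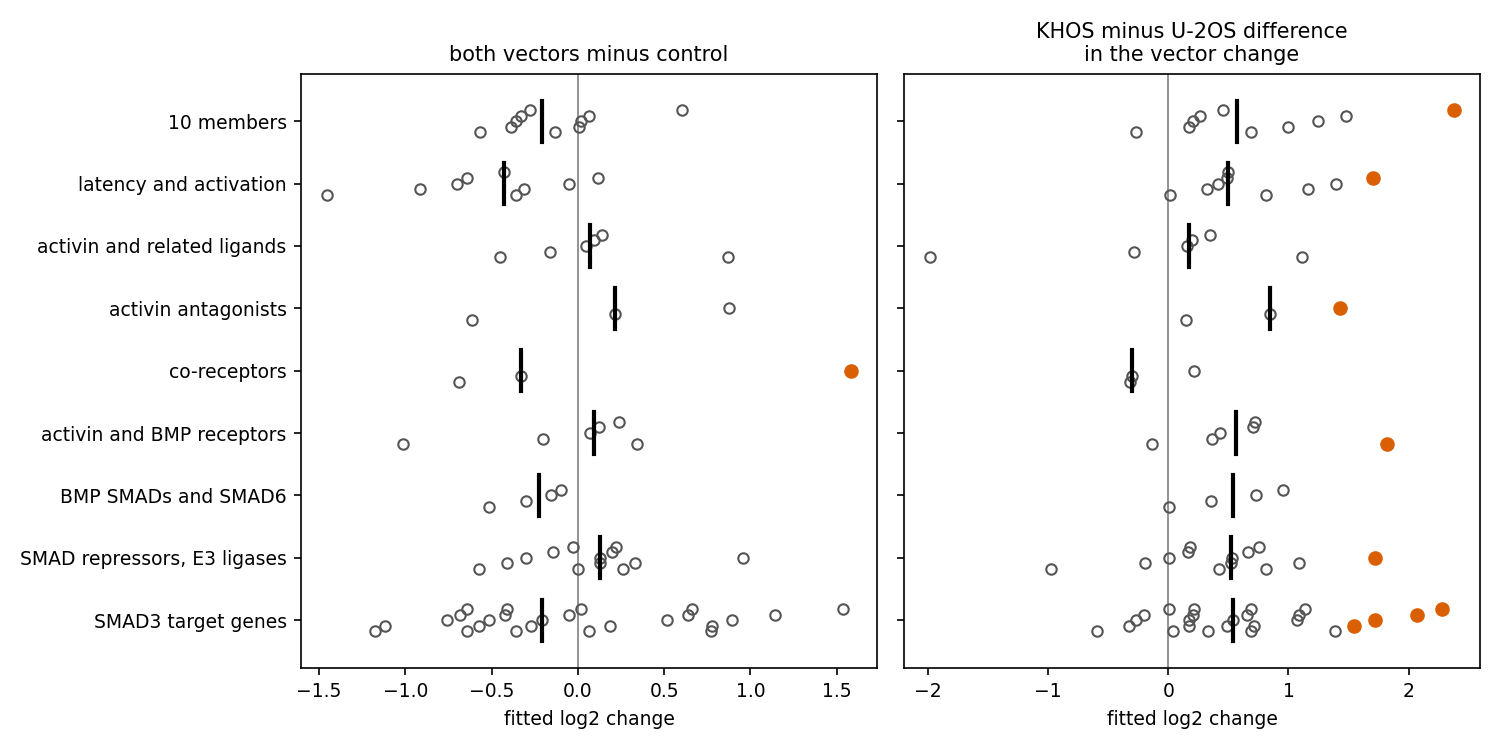
Fitted log2 changes of the tested genes of each pathway list with both vectors against control (left) and as the KHOS minus U-2OS difference in that change (right); filled orange points passed a limma adjusted p of 0.05, open points did not, and black bars are list medians. BAMBI, at 1.58, is the 1 filled point on the left, and on the right INHBA, at 2.37, is the member that passed.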

How the data were processed

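The deposited values are log2 RMA intensities that the authors computed in Qlucore 3.2, per the series' design text; RMA also stands in the submitters' processing notes. The genome build is not stated in the labels or files. No further normalization was applied. RMA compresses changes of dim probe sets, and pooling hides the variation among cultures.

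Of 54675 probe sets, 62 controls, 1801 with several symbols and 11721 with none were left out. A gene was represented by its probe set with the highest mean and tested where that mean reached the median probe set (5.11). Linear models (lmFit, eBayes) were fitted with limma 3.58.1 under R 4.3.3, and p-values were Benjamini-Hochberg adjusted over all 12958 genes. Line and treatment were additive terms with 2 residual degrees of freedom, line and vector with 3, and their interaction left 2. P-values measure the spread between pooled arrays, not cultures, and the number of arrays limits the precision. Fits were tested on simulated data with known changes of 2 (log2) and no unlike responses of the lines beyond the one tested. Recovery was 44.5% in the line difference of the vector change, so that comparison misses many changes of this size. In the other comparisons it was 86.5% to 97%, and the real lines, which respond unlike each other, can give less. The members and lists were chosen with earlier results of these data known. From each list the text names genes that passed, and those with the largest vector change and line difference. Alternatives concerned the probe set, filter, scaling, prior variance, and arrays included.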

Additional observations from a re-analysis of the deposited data

Results flagged for a closer look

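INHBA differed between the lines in its change with a vector by 2.37 (log2, limma adjusted p = 0.0087), with both vector arrays above control in KHOS and both below it in U-2OS by the representing probe set. In U-2OS its probe sets 210511_s_at (0.21 and 0.26) and 204926_at (0.71 and 0.64) were above control, and the call was lost after quantile normalization (2.06, limma adjusted p = 0.0635) and without the KHOS miR-null (2.51, 0.0805) or KHOS miR-1 array (2.23, 0.0671). TGFB2 (1.48, limma adjusted p = 0.0687), SMAD4 (1.25, 0.132) and SMAD7 (0.69, 0.237) drew attention because their vector arrays also lay on opposite sides of control in the 2 lines, although the test of the difference did not pass. For TGFB2 and SMAD4 another probe set above the level filter, 220406_at (-0.55) and 235725_at (-0.27), had the opposite sign. Each rests on 1 control array per line.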

How the results depend on the processing

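With 1 pooled array per line and treatment, 1 array decides many values. The 7 calls between lines were 7 or 8 with any array left out, and 5 at the 75th percentile filter, where the TGFB1, TGFB2 and TGFB3 probe sets were not tested. The eighth without a control array, and with a mean-dependent prior variance (limma adjusted p = 0.045), was SMAD3. In the line difference of the vector change 1 member passed, against 2 with every probe set, with the most variable probe set and with a mean-dependent prior variance, 0 after quantile normalization, and 0 to 4 with an array left out. Calls with miR-null and with both vectors went from 0 to between 0 and 2 with an array left out, and 1 member was past 1.2-fold in both lines with miR-null. Over all genes the 62 calls with both vectors were 222 with every probe set, 103 with no filter, 386 at the 75th percentile filter, 98 after quantile normalization, 588 with the mean-dependent prior variance and 3 with all 3 treatments as terms. The 296 calls in the line difference became 468 with the most variable probe set, 553 at the 75th percentile filter, 863 with that prior variance and 19 (68.4% higher, in place of 87.5%) after quantile normalization. Against the 0 calls for miR-null, 13 passed on the 4 arrays compared and 25 with that prior variance. Quantile normalization turned SMAD2 with miR-1 to 0.0192, TGFB3 with both vectors to -0.0248 and TGFBR1 in the line difference to -0.0221. Values whose sign changed with an array left out ranged as follows. Between miR-1 and miR-null they ranged from -0.36 to 0.92 for TGFB2, -0.72 to 0.81 for INHBA, -0.37 to 0.19 for TGFBR1, -0.20 to 0.16 for SMAD2, -0.60 to 0.21 for SMAD3, -0.97 to 0.36 for SMAD4 and -0.12 to 0.61 for SMAD7. Between miR-null and control they ranged from -1.01 to 0.47 for TGFB2, -0.34 to 0.019 for TGFB3, -0.61 to 1.76 for INHBA, -0.96 to 0.0292 for SMAD3, -0.86 to 0.38 for SMAD4 and -0.40 to 0.29 for SMAD7. With both vectors they ranged from -0.12 to 0.15 for TGFB1, -0.87 to 0.61 for TGFB2, -0.0916 to 0.13 for TGFB3, -0.59 to 1.79 for INHBA, -1.01 to 0.23 for SMAD4 and -0.28 to 0.41 for SMAD7. INHBA between lines ranged from -1.08 to 0.23 and TGFB3 in the line difference from -0.0912 to 0.43. The line difference cannot be estimated without a control array. The causes were not tested.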

Other observations

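The members with the widest range over the 6 arrays were SMAD4 (2.78), TGFB2 (2.40) and INHBA (2.15). The tested genes with the nearest profile, by Euclidean distance over the 6 arrays after each gene was centred on its mean, were ZZEF1 (0.25), POLR1F (0.31) and ZNF107 (0.31) for SMAD4, where the median gene lay at 2.58. For TGFB2 they were ADTRP (0.51), RAB11FIP1 (0.52) and LINC00963 (0.54), against a median of 2.06. For INHBA they were CREB5 (0.55), a CREB-family transcription factor, ZNF711 (0.56) and MAP3K7CL (0.62), against a median of 1.86. All 3 had their lowest value on the KHOS control array, which their choice by nearness to INHBA favours, so it is no separate result.

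Transcripts next to the members were at or below the level filter of 5.11. The antisense gene INHBA-AS1 had, in the order control, miR-null, miR-1, values of 4.56, 5.07 and 4.68 in KHOS and of 4.75, 4.61 and 4.82 in U-2OS by 1557850_at, and 3.28 to 3.62 by 1559163_at. SMAD3-DT, a transcript divergent from SMAD3, had 3.45 to 3.89.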
